A study of Mus musculus with 2 samples.

Results

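The replication-dependent histone genes encode the core histones H2A, H2B, H3 and H4 and the linker histone H1, and sit in clusters of many near-identical, intronless copies. They were taken here as every feature whose symbol starts with Hist1h, Hist2h, Hist3h or Hist4 and that had at least 20 unique molecular identifiers (UMIs, each 1 captured RNA end) over both libraries. This gave 62 of the 67 features with such a symbol, among 32285 features in all. The members were 5 H1, 16 H2A, 16 H2B, 12 H3 and 13 H4 genes. On mm10, 50 of them lie on chromosome 13 between bases 21715763 and 23764406, 9 on chromosome 3, 2 on chromosome 11 and 1 on chromosome 6. Just inside the limit, Hist2h3c2 had 15 UMIs in the library labelled Irf4-/- and 17 in the library labelled WT. Just outside it, Hist1h1t had 12 UMIs in the library labelled Irf4-/- and 3 in the library labelled WT. Hist2h2aa2 had 1 UMI labelled Irf4-/- and 2 labelled WT, and Hist1h2aa, Hist1h2ba and Hist1h2bq had 0 in both.

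Single-cell 3′ RNA counts were made from bone marrow of Irf4-/- mice and of wild-type (WT) C57BL/6 mice, 1 library for each genotype. The sort took CD122+ cells that lacked lineage markers, Ncr1, NK1.1, c-kit and Sca-1, and they are labelled NKP, natural killer progenitors. Which stretch of Irf4 is deleted, the age of the mice and how many were pooled are not stated in the labels. Each genotype has 1 library, so differences between them have no replicate check and were not tested. Every interval below is a 95% interval and covers counting error only.

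The library labelled Irf4-/- held 82599767 UMIs, of which 7955 of 8147 barcodes were kept, and the library labelled WT held 95031071 UMIs, with 12367 of 12732 barcodes kept. Median depth was 9540 UMIs per kept cell in the library labelled Irf4-/- and 7125 in the library labelled WT, and 27 barcode sequences occurred in both. Levels are given in CPM, the UMIs of a gene or of a set of genes out of each 1000000 UMIs of the cells named. Irf4 went against the label, with 803 UMIs (9.77 CPM, 9.11 to 10.5) in the library labelled Irf4-/- and 287 UMIs (3.04 CPM, 2.70 to 3.41) in the library labelled WT. A 3′ count need not fall in the deleted part, so this does not settle the genotype. Most cells carried transcripts of T cells, which the label does not name: of the cells kept, 84.4% labelled Irf4-/- and 90.4% labelled WT lay in clusters with Cd3d, Cd3e and Cd3g. Ncr1, against which the sort selected, was at 0.791 CPM in the library labelled Irf4-/- and 0.201 in the library labelled WT, while Il2rb, which encodes CD122, was at 346 in the library labelled Irf4-/- and 276 in the library labelled WT. Eomes, a transcription factor gene of natural killer and some T cells, had UMIs in 37.9% of cells labelled Irf4-/- and 33.4% labelled WT, and Klrb1c, which encodes NK1.1, in 10.5% labelled Irf4-/- and 4.93% labelled WT.

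Histone proteins package DNA, and a cell that copies its genome must make a matching supply of them during S phase. Most mRNAs of these genes end in a short stem-loop that is bound by SLBP (stem-loop binding protein) and carry no poly(A) tail, and NPAT switches the clusters on at S phase entry. Some of the genes are also made as ordinary polyadenylated mRNA, mainly in cells that have stopped dividing. The droplet kit primes on poly(A), so histone UMIs report the RNA ends that could be primed, and a level here is not the amount of all histone mRNA.

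The stem-loop is shown first because members are compared below by the distance from it to the annotated RNA end. Sequences are from GENCODE M21 transcripts (GRCm38), 5′ to 3′ on the RNA strand and written as DNA, with the hairpin in capitals.
Hist1h1e: acccaaaGGCTCTTTTCAGAGCCacccaca
Hist1h1c: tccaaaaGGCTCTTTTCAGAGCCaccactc
Hist3h2a: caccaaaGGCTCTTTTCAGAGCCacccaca
Hist1h3b: acccaaaGGCTCTTTTCAGAGCCacccaca
Hist1h3c: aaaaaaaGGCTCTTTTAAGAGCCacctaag
Hist1h2ap: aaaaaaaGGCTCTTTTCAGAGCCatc
Hist1h4d: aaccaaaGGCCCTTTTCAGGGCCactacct
Of the 62 members, 43 had such a hairpin in their longest transcript. The spelling seen in Hist1h1e, Hist1h1c, Hist3h2a, Hist1h3b and Hist1h2ap occurred in 24 members of the H1, H2A, H2B and H3 families. The spelling of Hist1h4d, with a C-rich stem, occurred in 7 members, all H4, and that of Hist1h3c in 5 members, of H2B and H3. Hist3h2a, the only member tested that was under 2-fold higher in dividing cells of each library, carries the same hairpin as Hist1h3b, the member with the largest ratio.

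Promoters are shown for Hist1h1b, the member with the highest level in dividing cells, for Hist1h2ae, which shares its upstream region with the H2B gene Hist1h2bg, and for Hist3h2a. Each window runs from 250 bases before to 50 bases after the gene start, from RefSeq on GRCm38.p6, 5′ to 3′ on the gene's strand. Capitals mark TATAAA (the TATA box), the CCAAT box, the H1 box AAACACA, the octamer core TTTGCAT and the E2F-type motif TTTCGCG, each searched on both strands and thus also capitalised as its reverse complement.
Hist1h1b, chr13:21780576-21780875, minus strand: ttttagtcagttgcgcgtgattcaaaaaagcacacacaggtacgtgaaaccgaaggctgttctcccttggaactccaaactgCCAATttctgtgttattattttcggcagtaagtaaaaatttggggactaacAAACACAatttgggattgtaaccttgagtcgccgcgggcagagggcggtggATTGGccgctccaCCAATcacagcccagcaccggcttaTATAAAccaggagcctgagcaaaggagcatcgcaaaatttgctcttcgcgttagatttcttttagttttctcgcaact
Hist1h2ae, chr13:23571171-23571470, minus strand: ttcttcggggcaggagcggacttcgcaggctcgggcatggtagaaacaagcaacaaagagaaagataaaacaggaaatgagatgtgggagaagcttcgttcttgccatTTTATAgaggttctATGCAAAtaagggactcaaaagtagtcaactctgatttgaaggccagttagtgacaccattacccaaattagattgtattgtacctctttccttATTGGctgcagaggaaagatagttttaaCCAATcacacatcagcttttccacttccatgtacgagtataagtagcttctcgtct
Hist3h2a, chr11:58954435-58954734, plus strand: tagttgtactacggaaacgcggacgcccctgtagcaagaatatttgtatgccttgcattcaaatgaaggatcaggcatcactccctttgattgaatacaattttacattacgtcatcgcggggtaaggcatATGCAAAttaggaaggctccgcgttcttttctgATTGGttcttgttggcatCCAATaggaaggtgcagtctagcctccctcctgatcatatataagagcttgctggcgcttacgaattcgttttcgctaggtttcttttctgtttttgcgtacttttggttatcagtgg
RefSeq promoters matched 56 of the 62 members. TATAAA was in 33 of the 56 (58.9%), against 13.6% of all 32851 promoters of that length, and CCAAT in 47 (83.9%), against 37.4%. CCAAT was present in every matched H1, H2A, H2B and H3 promoter but in 3 of 12 H4 promoters. AAACACA, which marks H1 promoters, was in 4 of 5 H1 promoters, against 7.18% of all. TTTCGCG was in 13 of the 56 members, 8 of them H2A and 5 H2B, a share of 23.2% against 0.849% of all promoters. The octamer core was in 12 of the 56 (21.4%), against 4.63% of all promoters, and Hist3h2a had it too. A match describes these letters only, since neighbouring H2A and H2B genes share a window. In the Hist1h2ae window the only TATAAA match is on the other strand, while the Hist1h2bg window holds it forward. Such a match need not be a TATA box of the gene named, and the counts include matches on either strand.

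Dividing cells were those with at least 4 UMIs of Mki67 and Top2a together, genes of proliferating cells that encode the Ki-67 protein and topoisomerase II alpha. There were 523 of them in the library labelled Irf4-/- (6.57% of cells, 6.04 to 7.14) and 345 in the library labelled WT (2.79%, 2.51 to 3.10). At exactly 4 UMIs stood 33 cells of the library labelled Irf4-/- and 13 of the library labelled WT, and at 1 UMI fewer stood 39 cells labelled Irf4-/- and 31 labelled WT. Dividing cells were deeper than the rest, with medians of 20402 against 9314.5 UMIs in the library labelled Irf4-/- and 16041 against 7053 in the library labelled WT. 

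Histone RNA was concentrated in the dividing cells of both libraries. The 62 members together made up 21161 CPM in dividing cells against 680 in the rest of the library labelled Irf4-/-, a log2 ratio of 4.96 (4.95 to 4.97). Among cells labelled WT they made up 21603 in dividing cells against 724 in the rest, a log2 ratio of 4.90 (4.89 to 4.91). Dividing cells thus gave 83.0% of all histone UMIs in the library labelled Irf4-/- and 66.7% in the library labelled WT. Per dividing cell, histone UMIs ranged widely, with a 10th percentile of 0.0559%, a median of 1.82% and a 90th percentile of 5.05% of the cell's UMIs in the library labelled Irf4-/-. For dividing cells labelled WT the 10th percentile was 0.0827%, the median 2.17% and the 90th percentile 5.01%. More than 1% of UMIs were histone in 289 of 523 dividing cells of the library labelled Irf4-/- and in 203 of 345 of the library labelled WT. Outside the dividing cells 6 cells of the library labelled Irf4-/- and 3 of the library labelled WT passed 1%.

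A level at least 2-fold higher in dividing cells was found for 60 of the 61 members with 20 UMIs in the library labelled Irf4-/-, where 14.0% of 13077 genes passed the same fold. Among cells labelled WT, it was found for 57 of 58 members, where 15.8% of 13075 genes did. The median member ratio was 5.68 on the log2 scale in the library labelled Irf4-/- and 5.75 in the library labelled WT, beside 0.06 over all genes tested in the library labelled Irf4-/- and 0.13 in the library labelled WT. None was 2-fold lower, where 5.36% of genes were in the library labelled Irf4-/- and 5.35% in the library labelled WT. A pair of cell cycle lists gives a scale for these values: all 20 S phase genes passed the fold, with medians of 2.65 in the library labelled Irf4-/- and 2.92 in the library labelled WT. All 20 genes of G2 and mitosis passed it too, with medians of 7.43 in the library labelled Irf4-/- and 7.72 in the library labelled WT. The 2 genes of the gate had log2 ratios of 8.29 for Mki67 and 7.06 for Top2a in the library labelled Irf4-/-, which the gate fixed.

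**Figure D1:**
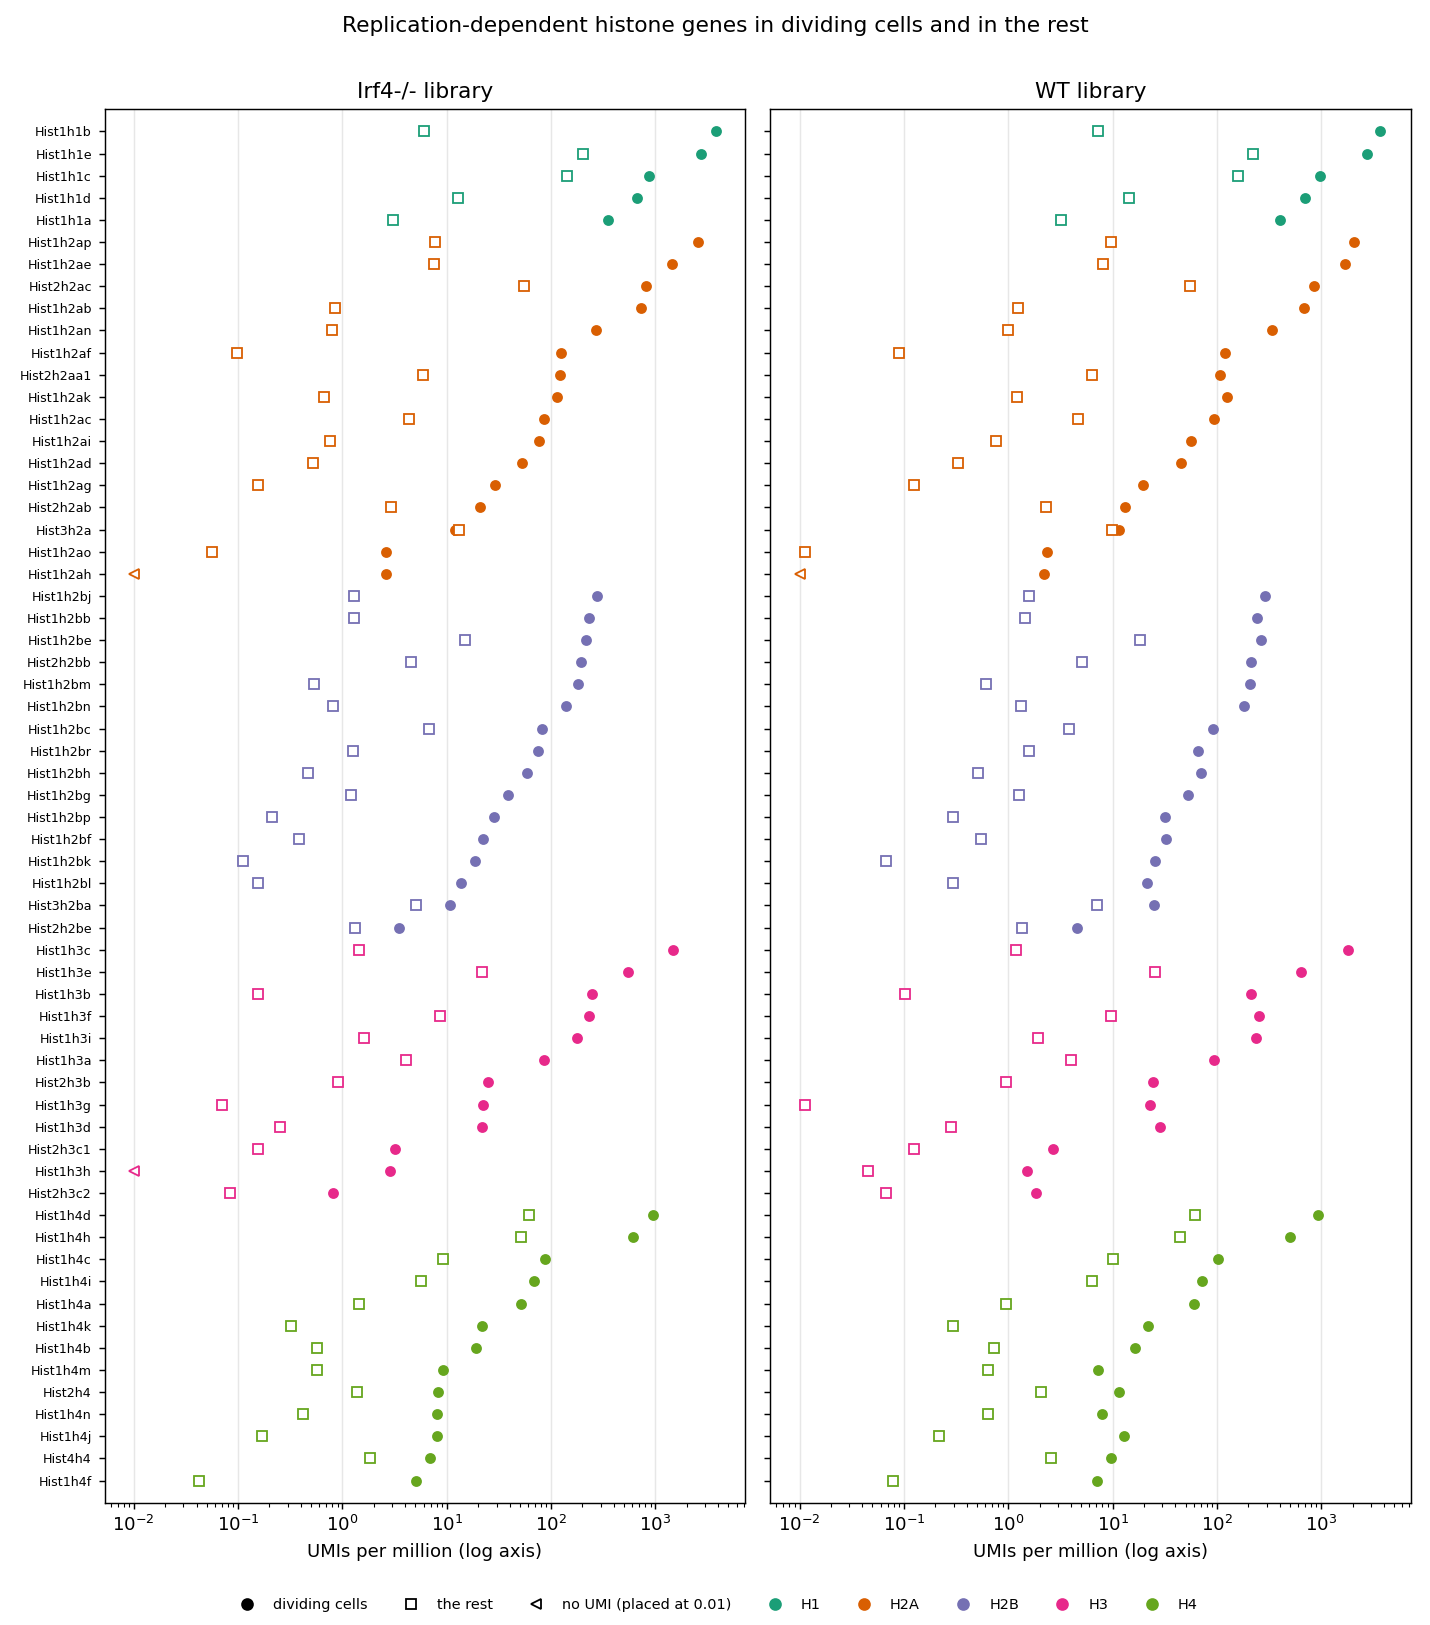
Level of each of the 62 members (CPM, log axis) in dividing cells (filled circles) and in the rest (open squares), library labelled Irf4-/- on the left and library labelled WT on the right, coloured by family. Triangles at 0.01 mark members with no UMI. For Hist3h2a circle and square lie close together, between 9.85 and 13.2 CPM.

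With all cell classes pooled, the linker histones H1 divide into members that were nearly absent outside dividing cells and members that were not. The pool hides differences between classes: outside dividing cells Hist1h1b was higher in progenitor B-like and B-like cells, as given further on. Hist1h1b (H1.5) had 3771 CPM in dividing cells against 6.07 in the rest of the library labelled Irf4-/-, a log2 ratio of 9.28 (9.14 to 9.42). In the library labelled WT Hist1h1b had 3695 in dividing cells against 7.27 in the rest, a ratio of 8.99 (8.88 to 9.10). Hist1h1e (H1.4) had 2759 in dividing cells against 202 in the rest of the library labelled Irf4-/-, and 2754 against 219 in the library labelled WT. Its log2 ratios were 3.77 (3.74 to 3.80) in the library labelled Irf4-/- and 3.65 (3.62 to 3.68) in the library labelled WT. Hist1h1c (H1.2) was flatter still, with 871 in dividing cells against 142 in the rest of the library labelled Irf4-/- and 969 against 161 in the library labelled WT. Its ratios were 2.62 (2.58 to 2.66) in the library labelled Irf4-/- and 2.59 (2.55 to 2.64) in the library labelled WT. Hist1h1d (H1.3) stood between, at 659 against 12.9 in the library labelled Irf4-/- and 696 against 14.5 in the library labelled WT. Hist1h1a (H1.1) was at 349 against 3.03 in the library labelled Irf4-/- and at 402 against 3.20 in the library labelled WT.

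Outside dividing cells, Hist1h1e and Hist1h1c alone gave 50.6% of the histone UMIs of the library labelled Irf4-/- and 52.5% of the library labelled WT. In dividing cells the pair gave 17.2% in each library. After each cell was thinned to 2000 UMIs, Hist1h1e was seen in 73.8% of dividing cells (69.8 to 77.5) against 31.3% of the rest (30.2 to 32.4) of the library labelled Irf4-/-. In the library labelled WT the thinned shares were 78.3% of dividing cells against 32.2% of the rest. Hist1h1b was seen in 67.1% of thinned dividing cells against 1.49% of the rest in the library labelled Irf4-/-, and in 68.1% against 1.43% in the library labelled WT. Without thinning Hist1h1b was in 77.1% against 3.31% of cells labelled Irf4-/- and in 79.1% against 2.65% of cells labelled WT.

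Among the H2A genes, whose product pairs with H2B in the nucleosome, Hist1h2ap had 2575 CPM in dividing cells against 7.80 in the rest of the library labelled Irf4-/-. Among cells labelled WT Hist1h2ap had 2059 against 9.65, and its log2 ratios were 8.37 (8.25 to 8.49) in the library labelled Irf4-/- and 7.74 (7.64 to 7.84) in the library labelled WT. Hist1h2ae had 1446 against 7.58 in the library labelled Irf4-/- and 1671 against 8.16 in the library labelled WT. Hist1h2ab had 725 against 0.845 in the library labelled Irf4-/- and 684 against 1.23 in the library labelled WT, with ratios of 9.74 in the library labelled Irf4-/- and 9.12 in the library labelled WT. Hist2h2ac was the H2A gene with the most RNA outside dividing cells, with 811 in dividing cells against 54.5 in the rest of the library labelled Irf4-/- and 848 against 54.7 in the library labelled WT. Its ratios were 3.90 in the library labelled Irf4-/- and 3.96 in the library labelled WT.

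The H3 genes had the steepest family ratio and the H4 genes the shallowest. H3 summed to 2841 CPM in dividing cells against 39.0 in the rest of the library labelled Irf4-/- and to 3316 against 43.6 in the library labelled WT, log2 ratios of 6.19 labelled Irf4-/- and 6.25 labelled WT. Hist1h3c had 1485 against 1.44 in the library labelled Irf4-/- and 1802 against 1.18 in the library labelled WT, ratios of 10.01 (9.73 to 10.31) labelled Irf4-/- and 10.58 (10.30 to 10.87) labelled WT. Hist1h3b reached the largest ratios of all members, 10.65 (9.81 to 11.66) in the library labelled Irf4-/- and 11.03 (10.10 to 12.16) in the library labelled WT, from 11 UMIs labelled Irf4-/- and 9 labelled WT in the rest. Hist1h3e was at 541 against 21.6 in the library labelled Irf4-/- and at 638 against 25.3 in the library labelled WT. H4, which pairs with H3, summed to 1856 against 134 in the library labelled Irf4-/- and to 1760 against 130 in the library labelled WT, ratios of 3.79 labelled Irf4-/- and 3.76 labelled WT. Hist1h4d had 947 against 61.8 in the library labelled Irf4-/- and 935 against 61.1 in the library labelled WT. Hist1h4h had 616 against 51.0 in the library labelled Irf4-/- and 496 against 43.9 in the library labelled WT. The H2A family ratios were 6.01 in the library labelled Irf4-/- and 5.95 in the library labelled WT, those of H2B 5.30 labelled Irf4-/- and 5.32 labelled WT, and those of H1 4.52 labelled Irf4-/- and 4.39 labelled WT.

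Hist3h2a gave a different picture. This H2A gene on chromosome 11 (58954685 to 58956830, plus strand) had 11.99 CPM in dividing cells against 13.2 in the rest of the library labelled Irf4-/-, a log2 ratio of -0.14 (-0.41 to 0.12). In the library labelled WT Hist3h2a had 11.4 against 9.85, a ratio of 0.22 (-0.16 to 0.57), so both intervals include 0. These ratios pool cell classes that differed widely in Hist3h2a below the gate, as given further on. CD3-expressing cells, where it was lowest there, made up 71.5% of dividing cells labelled Irf4-/- and 73.3% labelled WT. The part of the mix of classes in these ratios was not tested. Its neighbour Hist3h2ba, an H2B gene, had 10.7 against 5.04 in the library labelled Irf4-/- and 24.7 against 7.06 in the library labelled WT, ratios of 1.09 labelled Irf4-/- and 1.81 labelled WT.

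The level outside dividing cells was not a fixed share of the level inside them. It was 0.0967% of the dividing level for Hist1h3c, 0.161% for Hist1h1b, 6.53% for Hist1h4d, 7.33% for Hist1h1e, 16.3% for Hist1h1c and 110% for Hist3h2a in the library labelled Irf4-/-. Among cells labelled WT, the share was 0.0653% for Hist1h3c, 0.197% for Hist1h1b, 6.54% for Hist1h4d, 7.97% for Hist1h1e, 16.6% for Hist1h1c and 86.1% for Hist3h2a. The lowest of the shares computed was that of Hist1h3b, 0.0621% labelled Irf4-/- and 0.0478% labelled WT. The part of RNA free in the droplets in these levels was not tested.

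Members were also grouped by their annotated 3′ end. In 18 members the GENCODE M21 transcript runs at least 300 bases past the stem-loop, in 25 it ends within 200 bases of it, and in 19 the transcript holds no stem-loop by this search. The 18 with a long end had a median dividing-over-rest log2 ratio of 3.90 in the library labelled Irf4-/- and 4.13 in the library labelled WT, and their median level in the rest was 7.17 CPM labelled Irf4-/- and 7.93 CPM labelled WT. The 25 with a short end had median ratios of 6.65 in the library labelled Irf4-/- and 7.10 in the library labelled WT, and their median level in the rest was 0.845 CPM labelled Irf4-/- and 0.950 CPM labelled WT. The 19 without a stem-loop had median ratios of 6.47 in the library labelled Irf4-/- and 6.20 in the library labelled WT. The long ends belong to Hist1h1e (1153 bases), Hist1h1c (840 bases), Hist1h4d (770 bases) and Hist3h2a (1643 bases), among others. The short ends belong to Hist1h3c (74 bases), Hist1h3b (51 bases) and Hist1h2ap (3 bases), but also to Hist2h2ac (57 bases) and Hist1h4h (46 bases), which had high levels outside dividing cells. Ratios under 5 were found for 14 of the 18 long ends in each library, and for 7 of the 25 short ends labelled Irf4-/- and 8 labelled WT. These groups hold all members, also those with under 20 UMIs in a library. A count of 0 entered a ratio as 3 UMIs, which limits the ratios of members with few UMIs. The groups overlapped, with ratios between -0.14 and 6.99 for long ends and between 1.09 and 10.65 for short ends in the library labelled Irf4-/-. Transcript models were built by others from other cells, and read positions were not used here, so which ends were primed was not tested.

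**Figure D2:**
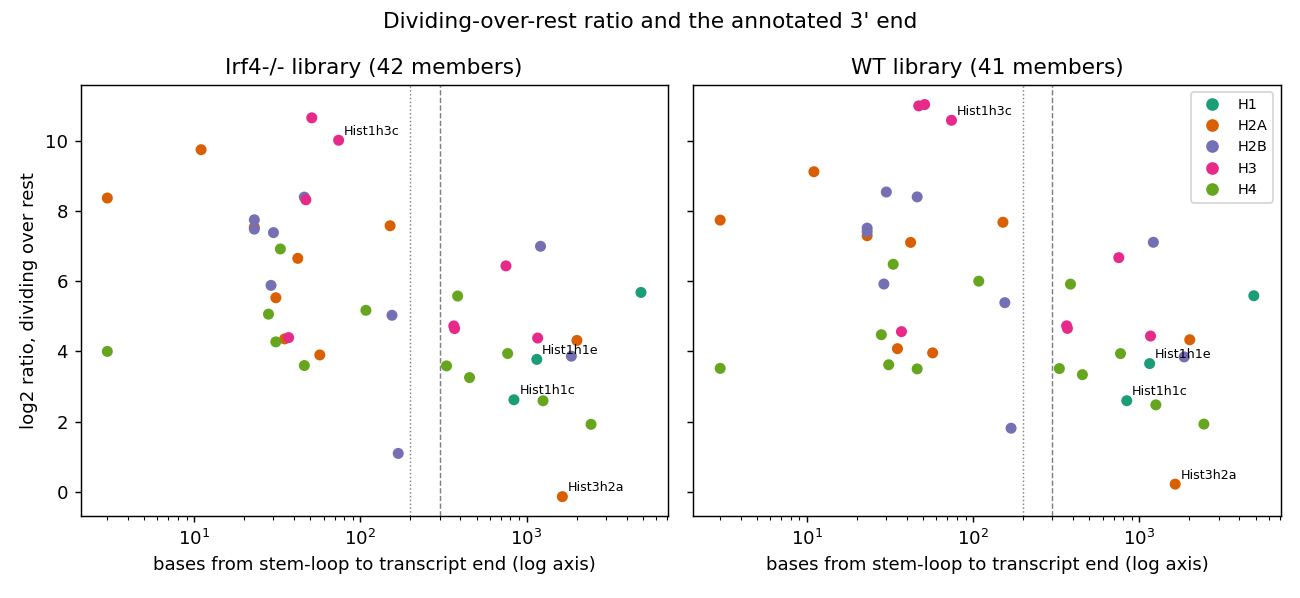
Log2 ratio of the level in dividing cells over the level in the rest, against the bases from the stem-loop to the annotated transcript end (log axis), for members with a stem-loop and at least 20 UMIs in the library plotted. Lines mark 200 and 300 bases, and each point is 1 member, coloured by family. Hist3h2a has the lowest ratio in both panels and Hist1h3b the highest.

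H2A and H2B genes lie head to head across a shared upstream region, so each pair gives a comparison within a locus. There were 10 such pairs with starts within 500 bases and both genes members. A UMI is counted once per captured end, so no length correction applies, but how many ends can be primed or placed uniquely differs between the genes. In dividing cells the H2A to H2B ratio of UMIs was 0.103 for Hist1h2ag and Hist1h2bj, 1.03 for Hist1h2ac and Hist1h2bc and 37.1 for Hist1h2ae and Hist1h2bg in the library labelled Irf4-/-. In the library labelled WT the ratio was 0.0681 for Hist1h2ag and Hist1h2bj, 1.015 for Hist1h2ac and Hist1h2bc and 31.8 for Hist1h2ae and Hist1h2bg. Hist2h2ac had 9066 UMIs in dividing cells of the library labelled Irf4-/- beside 39 of Hist2h2be, and 5043 beside 27 of Hist2h2be in the library labelled WT. The 10 ratios ran between 0.103 and 232 in the library labelled Irf4-/- and between 0.0681 and 187 in the library labelled WT, so genes that share an upstream region had very unequal UMI counts.

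Sequence shared with other transcripts limits what a count of 1 member means. In 30 of the 62 members fewer than 50% of the 50-base stretches of the transcript were unique among all GENCODE M21 transcripts. For Hist1h2ap 6.93% were unique and for Hist1h2br 0.166%, while Hist1h2bq had none and no UMI. The last 500 bases of Hist1h1e, where 3′ reads start, were 0.887% unique, whereas those of Hist1h1c, Hist1h4d, Hist3h2a and Hist1h1b were 100% unique. Counts of Hist1h2ap, Hist1h2br and Hist1h1e are therefore uncertain, since reads of shared sequence can be dropped or given to another gene. The annotated Hist1h1e transcript runs 1153 bases past its stem-loop, and Hist1h2be lies downstream of Hist1h1e on the same strand. Whether the shared end of Hist1h1e is a near-identical copy or an overlap of annotated transcripts was not tested.

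The members were then compared between cells grouped by S phase and G2/M lists that hold no histone gene, neither Mki67 nor Top2a. Each cell was thinned to 2000 UMIs and classed by whether the S list, the G2/M list, both or neither had at least 3 UMIs. A class thus names the lists found in a cell and not its phase, and S-only means the S list only. Histone RNA was highest in cells with both, at 30839 CPM in 266 cells of the library labelled Irf4-/- and 32342 in 183 cells of the library labelled WT. Cells with the G2/M list only had 13680 (125 cells) in the library labelled Irf4-/- and 12429 (101 cells) in the library labelled WT. Cells with the S list only had 1828 (662 cells) in the library labelled Irf4-/- and 1475 (616 cells) in the library labelled WT. Cells with neither had 688 in the library labelled Irf4-/- and 722 in the library labelled WT.

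Most S-only cells did not pass the gate for dividing cells. Of them 19.2% passed it in the library labelled Irf4-/- and 10.2% in the library labelled WT. Those that passed had 5112 CPM against 567 below the gate in the library labelled Irf4-/-, and 4970 against 688 in the library labelled WT. Set against G2/M-only cells, S-only cells were lower by log2 ratios of -2.90 (-2.93 to -2.88) in the library labelled Irf4-/- and -3.08 (-3.11 to -3.04) in the library labelled WT. With at least 5 UMIs of a list in place of 3 these were -1.91 labelled Irf4-/- and -1.40 labelled WT. S-only cells that passed the gate were still lower, at -1.42 (-1.45 to -1.39) in the library labelled Irf4-/- and -1.32 (-1.37 to -1.28) in the library labelled WT. Of the members with 20 UMIs there, 52 of 54 were at least 2-fold lower in S-only than in G2/M-only cells of the library labelled Irf4-/-, beside 10.3% of 10506 genes. Among cells labelled WT 50 of 51 were, beside 7.65% of 9907 genes. None was 2-fold higher in S-only cells, where 5.41% of genes were in the library labelled Irf4-/- and 5.42% in the library labelled WT. The exceptions were Hist1h4a (-0.73, -1.21 to -0.22) and Hist1h3a (-0.74, -1.11 to -0.36) in the library labelled Irf4-/- and Hist3h2a (-0.78, -1.61 to 0.10) in the library labelled WT.

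**Figure D3:**
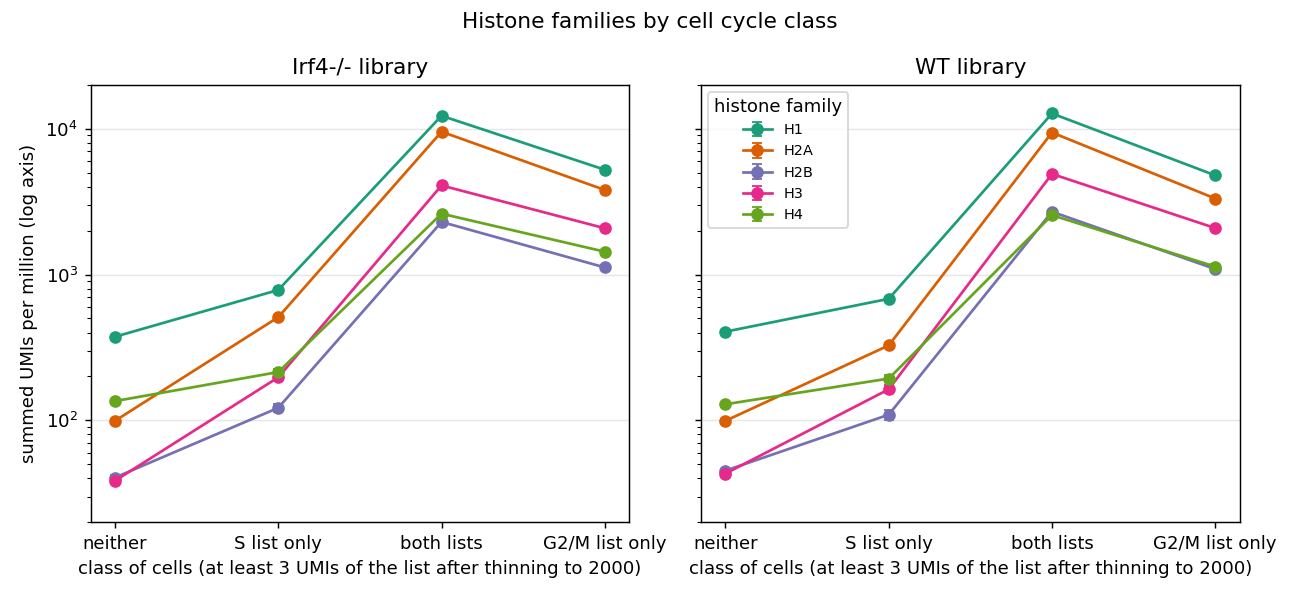
Summed CPM (log axis) of each histone family in cells with neither list, the S list only, both lists and the G2/M list only, library labelled Irf4-/- on the left and library labelled WT on the right. Bars are exact Poisson 95% intervals and are mostly smaller than the points. All 5 families peak in cells with both lists.

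Genes that make, process and carry histones were compared from lists of their own. SLBP, which binds the stem-loop, was encoded by Slbp at 251 CPM in dividing cells against 70.2 in the rest of the library labelled Irf4-/- and at 259 against 64.6 in the library labelled WT. Unlike the histone members, Slbp was higher in S-only than in G2/M-only cells, at 175 against 70.4 in the library labelled Irf4-/- and 142 against 83.7 in the library labelled WT. Npat, which activates the clusters, had 34.0 in dividing cells against 17.8 in the rest of the library labelled Irf4-/- and 35.0 against 19.0 in the library labelled WT. Of this list of 17 genes for transcription and 3′ processing, 5 were at least 2-fold higher in dividing cells of each library. Of all genes tested 14.0% were in the library labelled Irf4-/- and 15.8% in the library labelled WT. Eri1, a nuclease that trims the stem-loop RNA, and Srrt had ratios of 1.25 and 1.23 in the library labelled Irf4-/-, and Zfp473 had 2.72 there from 31 UMIs in dividing cells and 30 in the rest.

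Of 15 histone chaperones, which escort histones to DNA, 10 passed the fold in each library. Here and for the lists that follow, the share over all genes tested was 14.0% labelled Irf4-/- and 15.8% labelled WT. The largest ratios were those of Asf1b, a carrier of H3 and H4, at 4.99 in the library labelled Irf4-/- and 5.13 in the library labelled WT. Chaf1a, a subunit of the factor that deposits H3 and H4 behind the fork, was at 3.53 labelled Irf4-/- and 4.53 labelled WT. Hjurp, which loads the centromere H3 Cenpa, had 2.58 labelled Irf4-/- and 2.60 labelled WT, and Chaf1b had 2.24 labelled Irf4-/- and 2.42 labelled WT. Of 10 measured histone variant genes that are not members, 6 passed in the library labelled Irf4-/- and 7 in the library labelled WT. Their largest ratios were those of the linker histone gene H1fx, at 4.45 labelled Irf4-/- and 6.48 labelled WT (here from 5 UMIs in the rest). Cenpa had 4.18 labelled Irf4-/- and 4.22 labelled WT, H2afx 4.12 labelled Irf4-/- and 4.35 labelled WT, and H2afv 2.53 labelled Irf4-/- and 2.56 labelled WT. All 6 genes of S phase entry passed, among them Ccne2, which encodes cyclin E2, at 5.20 labelled Irf4-/- and 5.81 labelled WT, and the transcription factor gene E2f1, at 3.34 labelled Irf4-/- and 4.25 labelled WT.

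Between the libraries, histone RNA over all kept cells was higher in the library labelled Irf4-/-, at 3465 CPM (3452 to 3477), against 2039 (2030 to 2048) in the library labelled WT. The log2 ratio was 0.76 (0.76 to 0.77). At least 2-fold higher were 13 of 62 members, where 4.55% of 14117 genes were, and 0 members were 2-fold lower, where 1.41% of genes were. Of the 13, 8 were H2A genes, 3 H3, 1 H1 and 1 H2B. The median member ratio was 0.77, beside 0.04 for all genes tested. The share of dividing cells moved with this, 6.57% in the library labelled Irf4-/- against 2.79% in the library labelled WT. With cells of the library labelled Irf4-/- reweighted to the cycle class shares of the library labelled WT, the log2 ratio was -0.01. With 1 library each, a difference between genotypes and one between libraries cannot be told apart.

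Within dividing cells the libraries were close. The sum was 21161 CPM (21075 to 21246) in the library labelled Irf4-/- and 21603 (21485 to 21721) in the library labelled WT. The log2 ratio was -0.03 (-0.04 to -0.02), and its sign turned with other gates (0.0081 with 2 UMIs, 0.012 with 8 and 0.093 with 1 after thinning). It was -0.16 when reweighted to the cycle classes of WT and -0.11 as a mean over cells. These values pool cell classes in unequal shares. Progenitor B-like cells made up 15.7% of dividing cells labelled Irf4-/- and 6.09% labelled WT, and an unnamed Cd79a cluster 5.16% and 11.3%. The part of this mix was not tested. Of the 62 members 0 were 2-fold higher, where 2.36% of 11230 genes were, and 2 were 2-fold lower, where 1.40% were. The 2 were Hist3h2ba, with 10.7 in the library labelled Irf4-/- against 24.7 in the library labelled WT (-1.20, -1.56 to -0.85), and Hist2h3c2, from 9 UMIs labelled Irf4-/- and 11 labelled WT, whose interval of -2.65 to 0.21 includes 0. In the rest of the cells the sum was 680 (674 to 686) in the library labelled Irf4-/- and 724 (718 to 730) in the library labelled WT, a log2 ratio of -0.09 (-0.11 to -0.07). There 54 of the 62 members had enough UMIs, and 0 of these passed 2-fold in either direction, where 3.23% of 13738 genes were higher and 1.69% lower.

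Among members with at least 100 UMIs in dividing cells over both libraries, the 5 highest by log2 ratio, all but 1 of them H2A genes, were Hist2h2ab at 0.65 (0.28 to 1.04), Hist1h2ag at 0.56, Hist1h2ai at 0.43, Hist1h4m at 0.35 and Hist1h2ap at 0.32 (0.29 to 0.35). The 5 lowest were Hist3h2ba, Hist1h4j at -0.69 (-1.14 to -0.23), Hist1h2bl at -0.65, Hist1h2bf at -0.55 and Hist4h4 at -0.48 (-0.99 to 0.03). By family the ratios in dividing cells were -0.02 for H1, 0.06 for H2A, -0.19 for H2B, -0.22 for H3 and 0.08 for H4. Hist1h3c followed its family, with 1485 CPM in the library labelled Irf4-/- against 1802 in the library labelled WT (-0.28, -0.31 to -0.24).

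**Figure D4:**
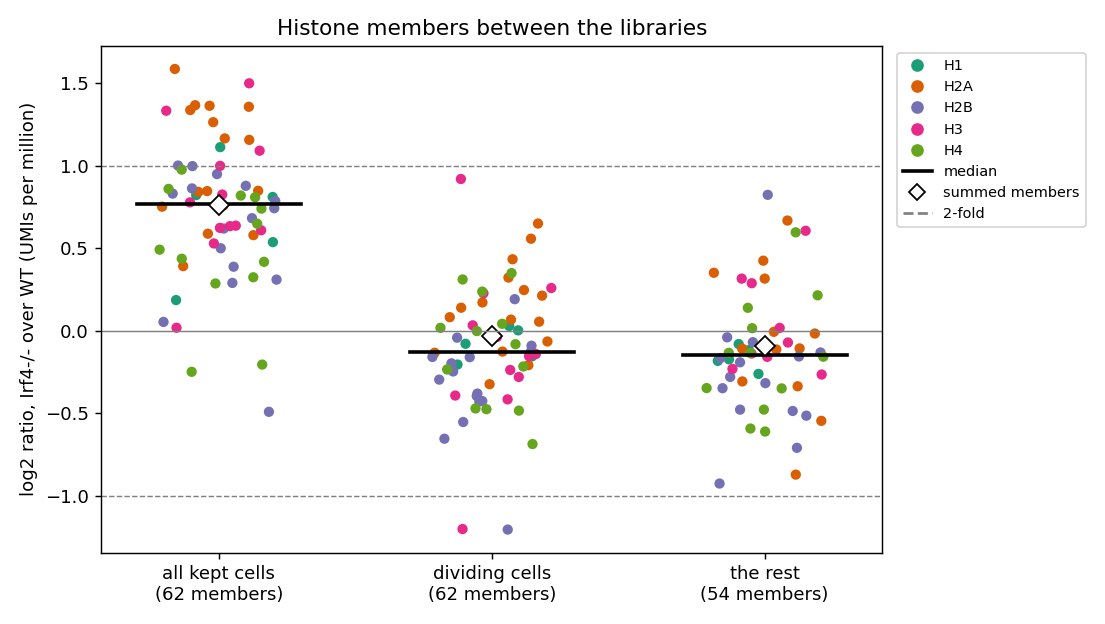
Library difference of each member as log2 of its CPM labelled Irf4-/- over its CPM labelled WT, in all kept cells, in dividing cells and in the rest. Points are members (in dividing cells and the rest those with at least 20 UMIs over both libraries) coloured by family, black lines are medians, open diamonds the ratio of the summed members and dashed lines 2-fold. The median is 0.77 in all kept cells, -0.13 in dividing cells and -0.15 in the rest.

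Outside dividing cells, progenitor B-like cells carried the most histone RNA of these 4 classes and CD3-expressing cells the least, and dividing progenitor B-like cells were above dividing CD3-expressing cells in both libraries. Classes came from clusters made without the histone features. The CD3-expressing clusters other than gamma-delta T-like held 6001 cells of the library labelled Irf4-/- and 10039 of the library labelled WT, of which 374 labelled Irf4-/- and 253 labelled WT were dividing. Gamma-delta T-like cells numbered 717 labelled Irf4-/- and 1144 labelled WT with no dividing cell, and dividing cells of this kind can sit in the cycling CD3-expressing clusters. Progenitor B-like cells numbered 293 labelled Irf4-/-, 82 of them dividing, and 112 labelled WT, 21 of them dividing. They pool a cluster led by Rag1, Rag2 and Vpreb1, with 0.66% dividing cells, and a cluster led by Igll1, Vpreb1 and Vpreb2, with 100%. Dividing progenitor B-like cells and those below the gate therefore come almost wholly from different clusters, and need not be the same cells in different states. B-like cells numbered 741 labelled Irf4-/-, 7 of them dividing, and 785 labelled WT, 6 of them dividing.

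Dividing progenitor B-like cells had 34712 CPM in the library labelled Irf4-/-, against 18436 in dividing CD3-expressing cells, a log2 ratio of 0.91 (0.90 to 0.93). Those labelled WT had 31606 against 19585, a ratio of 0.69 (0.66 to 0.72). Of the members tested, 18 of 61 were at least 2-fold higher in dividing progenitor B-like cells of the library labelled Irf4-/-, where 10.6% of 10066 genes were, and 0 were 2-fold lower, where 13.2% were. In the library labelled WT 8 of 56 were, where 8.97% of 9030 genes were, from 21 cells, and 2 members were 2-fold lower, where 1358 of those genes were. The share of dividing cells in both cycle lists moved with this, 64.6% of progenitor B-like against 48.9% of CD3-expressing cells in the library labelled Irf4-/- and 61.9% against 50.2% in the library labelled WT. Within cells of both lists the log2 ratio was 0.57 (0.56 to 0.59) in the library labelled Irf4-/- and 0.22 (0.19 to 0.25) in the library labelled WT.

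Hist1h1a stood out in the progenitor B-like class. It had 962 CPM in dividing progenitor B-like cells against 200.5 in dividing CD3-expressing cells of the library labelled Irf4-/-, a log2 ratio of 2.26 (2.16 to 2.36). In the library labelled WT Hist1h1a had 1252 against 279, a ratio of 2.17 (2.01 to 2.32). Hist3h2a was higher there by 2.79 (2.21 to 3.36) in the library labelled Irf4-/- and 2.82 (1.85 to 3.75) in the library labelled WT. Hist1h1b was higher by 1.24 labelled Irf4-/- and 0.88 labelled WT, and Hist1h1e by 0.76 labelled Irf4-/- and 0.79 labelled WT. An unnamed cluster with Cd79a, nearly all dividing (27 of 28 cells in the library labelled Irf4-/- and 39 of 39 in the library labelled WT), had 21434 in the library labelled Irf4-/- and 33338 in the library labelled WT.

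**Figure D5:**
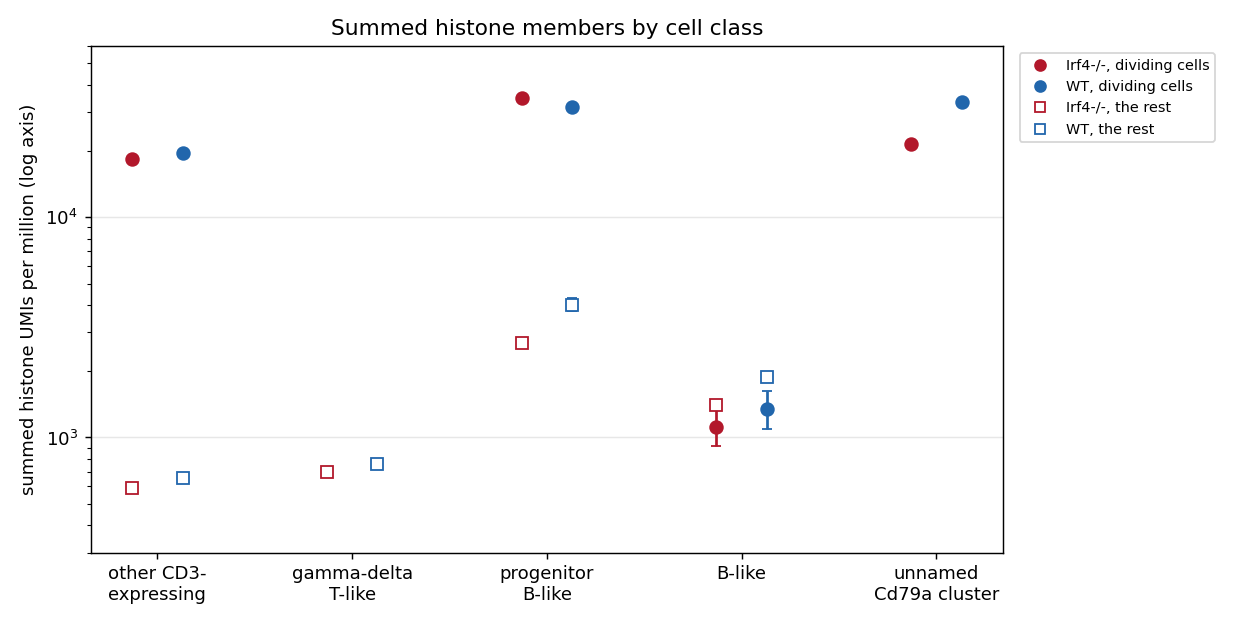
Summed histone CPM (log axis) by cell class, library labelled Irf4-/- in red and library labelled WT in blue. Filled circles are dividing cells, open squares the rest, and bars exact Poisson 95% intervals. Progenitor B-like cells lie above CD3-expressing cells both in dividing cells and in the rest.

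Outside dividing cells the order of classes was the same in both libraries. CD3-expressing cells had 588 CPM in the library labelled Irf4-/- and 657 in the library labelled WT, and gamma-delta T-like cells 699 labelled Irf4-/- and 754 labelled WT. B-like cells had 1410 in the library labelled Irf4-/- and 1874 in the library labelled WT, and progenitor B-like cells 2689 labelled Irf4-/- and 4017 labelled WT. B-like over CD3-expressing cells gave a log2 ratio of 1.26 (1.22 to 1.30) in the library labelled Irf4-/- and 1.51 (1.47 to 1.55) in the library labelled WT. Gamma-delta T-like over CD3-expressing cells gave 0.25 (0.20 to 0.30) labelled Irf4-/- and 0.20 (0.16 to 0.24) labelled WT. The B-like cells that passed the gate had 1110 CPM labelled Irf4-/- (7 cells, 116 UMIs) and 1340 labelled WT (6 cells, 99 UMIs), below the other B-like cells.

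Below the gate the classes also differed in depth, with median UMIs per cell of 3963 in progenitor B-like, 4077 in B-like and 9923 in CD3-expressing cells labelled Irf4-/-, and 2452, 2996 and 7341 in those labelled WT. A cell below the gate need not be resting: after thinning, Hist1h1b was in 18.3% of progenitor B-like against 0.320% of CD3-expressing cells below the gate labelled Irf4-/-, and in 27.7% against 0.492% of those labelled WT. The part of depth and of cycling cells in the class values below the gate was not tested. Hist1h1e was at 495 CPM in B-like cells below the gate of the library labelled Irf4-/- and 709 in the library labelled WT, and in CD3-expressing cells below the gate at 166 labelled Irf4-/- and 190 labelled WT. Hist3h2a was at 155 in progenitor B-like cells below the gate of the library labelled Irf4-/- and 101 in the library labelled WT, in B-like cells below the gate at 70.4 labelled Irf4-/- and 48.0 labelled WT, and in CD3-expressing cells below the gate at 7.34 labelled Irf4-/- and 8.07 labelled WT. After thinning, 13.9% of B-like cells (11.5 to 16.6) against 1.76% of CD3-expressing cells carried Hist3h2a in the library labelled Irf4-/-, and 9.05% against 1.60% in the library labelled WT. Without thinning the shares were 26.02% against 7.14% labelled Irf4-/- and 13.2% against 5.87% labelled WT.

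Hist1h2bc, an H2B gene, had the same order, with 42.2 CPM in B-like against 2.96 in CD3-expressing cells below the gate labelled Irf4-/- and 27.7 against 2.71 labelled WT. Hist1h1b was at 106 in progenitor B-like, 39.0 in B-like and 2.18 in CD3-expressing cells below the gate labelled Irf4-/-, and at 252, 71.2 and 3.39 in those labelled WT. Hist1h3c gave 0 UMIs in progenitor B-like cells below the gate of both libraries, where a count of 0 allows up to 3 UMIs in each, and in B-like cells below the gate 8 UMIs labelled Irf4-/- and 3 labelled WT. Hist2h2ac gave another pattern, with 54.8 in B-like against 53.6 in CD3-expressing cells of the library labelled Irf4-/- and 91.8 against 52.4 in the library labelled WT.

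Within classes the ratio between the libraries took either sign. In CD3-expressing cells the log2 ratio was 0.69 (0.68 to 0.70) over all of them and -0.063 when reweighted to the cycle classes of WT, -0.09 (-0.10 to -0.08) in dividing and -0.16 (-0.18 to -0.14) in those below the gate. In progenitor B-like cells it was 0.14 (0.11 to 0.16) in dividing and -0.58 (-0.69 to -0.47) in cells below the gate. In B-like cells it was -0.41 (-0.47 to -0.35), with -0.36 (-0.42 to -0.29) in the larger and -0.84 (-0.99 to -0.69) in the smaller of 2 clusters. In gamma-delta T-like cells it was -0.11 (-0.17 to -0.05), but -0.011 (-0.08 to 0.06) without the member with most UMIs. With classes taken from marker UMIs it was 1.12 (1.06 to 1.17), and dividing cells in that class were not counted. The CD3-expressing class pools clusters of unequal size between the libraries. A cluster led by Gzmk had 4 cells labelled Irf4-/- and 343 labelled WT, and a cluster led by Fgl2 had 1301 and 205. The part of this mix in the CD3-expressing ratios was not tested.

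Counts of members past 2-fold between the libraries followed the same division. Over all CD3-expressing cells 11 of 62 members were higher, where 2.06% of 13174 genes were, and 0 were lower, where 1.76% were. In dividing CD3-expressing cells 0 of 61 were higher and 1 was lower, where 1.31% and 1.60% of genes were, and in those below the gate 0 of 49 were higher and 2 were lower, where 1.58% and 1.88% were. In gamma-delta T-like cells 0 of 27 members passed in either direction, where 1.11% of genes were higher and 1.15% lower. In progenitor B-like cells 2 of 55 were higher and 2 lower, where 5.84% and 2.64% of genes were. In B-like cells 0 of 30 were higher, where 2.67% of genes were, and 5 were lower, where 2.61% were.

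Hist3h2ba, the lowest member in dividing cells, was past 2-fold lower in several of these classes. Its log2 ratio was -1.35 (-1.86 to -0.84, from 58 UMIs labelled Irf4-/- and 81 labelled WT) in dividing CD3-expressing cells, -1.52 (-2.14 to -0.89, from 53 UMIs labelled Irf4-/- and 39 labelled WT) in progenitor B-like cells and -1.19 (-1.82 to -0.58, from 36 UMIs labelled Irf4-/- and 65 labelled WT) in B-like cells. The dividing CD3-expressing and progenitor B-like values share cells with the dividing cells by which Hist3h2ba was named, so they are no separate check. In the rest of the cells, all classes together, 0 members were past 2-fold lower, so Hist3h2ba was not either. Its neighbour Hist3h2a was not lower, at 0.07 (-0.36 to 0.51) in dividing cells and 0.42 (0.29 to 0.56) in the rest.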

How the data were processed

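The authors deposited UMI counts per gene and cell barcode, made with Cell Ranger 6.1.1 per the file headers, and mm10 is the build in the submitters' processing notes. No label or header names the annotation release. Per the labels' protocols libraries came from a 3′ droplet kit, and their text speaks of nuclei although cells were sorted. Kept barcodes had at least 500 genes, at least 1000 UMIs and under 10% mitochondrial UMIs. Both libraries were clustered together without the histone features (scanpy 1.11.5, igraph 0.11.9, 2000 variable genes, 30 components, 15 neighbours, resolution 1), and clusters were named from marker lists. No doublet caller was run: a cluster with CD3 genes and Cd79a (97 cells labelled Irf4-/- and 160 labelled WT) stayed in values over all cells and was left out in an alternative. Levels are CPM, summed UMIs out of each 1000000. Their 95% intervals are exact Poisson, those of ratios exact conditional binomial and those of shares exact Clopper-Pearson (numpy 2.4.6, scipy 1.17.1, pandas 2.3.3, matplotlib 3.10.9). PCR copies and cells of 1 library are not independent samples, so intervals cover counting error only. The ratio script was tested on simulated data. Cycle classes came from cells thinned to 2000 UMIs, with at least 3 UMIs of a list, and levels in them from unthinned counts. A gene was tested for a 2-fold difference with at least 20 UMIs over the 2 populations compared. Named members are the 12 with most UMIs, those under 2-fold between dividing cells and the rest, and the 5 highest and 5 lowest between libraries with at least 100 UMIs in dividing cells. Other members named for cell classes, 3′ ends, cycle classes or pairs were chosen after their values were seen. The members, lists and rules were chosen with earlier results of these data known.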

Additional observations from a re-analysis of the deposited data

Results flagged for a closer look

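For 5 members the ratio of the library labelled Irf4-/- over the library labelled WT had opposite signs in dividing cells and in the rest. The difference between the ratios was not tested, since there was 1 library for each genotype. Hist1h1b had a log2 ratio of 0.029 in dividing cells and -0.26 in the rest. Hist1h2ap had 0.32 in dividing cells and -0.31 in the rest. Hist1h2ab had 0.083 in dividing cells and -0.54 in the rest. Hist1h2bc went the other way, with -0.16 in dividing cells and 0.82 in the rest, and so did Hist1h4a, with -0.23 in dividing cells and 0.60 in the rest.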

How the results depend on the processing

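Of 137 alternative values, 75 kept their direction and stayed within the counting interval or, for a count, within 1.5 times. Another 54 moved beyond that, and 8 turned sign. No paired analysis was possible because each genotype had 1 library, and for the same reason no replicate could be left out. All ratios here are log2 values, given for the library labelled Irf4-/- over the library labelled WT unless dividing over rest is named, and where a sign turned the cause was not tested. With cells labelled Irf4-/- reweighted to the cycle classes of those labelled WT, the ratio was -0.0069 over all cells (0.76 as reported), -0.16 in dividing cells (-0.03), -0.063 in CD3-expressing cells (0.69) and -0.44 in progenitor B-like cells (0.10). In dividing cells it was 0.0081 with a gate of 2 UMIs, 0.012 with a gate of 8 UMIs and 0.093 with a gate of 1 UMI after thinning, which gave -0.037 in the rest. Classes from marker UMIs gave 1.12 in gamma-delta T-like cells (-0.11), -0.29 in progenitor B-like cells, -0.60 in B-like cells (-0.41) and 0.73 in CD3-expressing cells. Stricter cell filters gave 0.84 over all cells, -0.12 in the rest (-0.09), 0.76 in CD3-expressing and 0.18 in progenitor B-like cells. A mean over cells gave 0.57 over all cells, -0.11 in dividing cells, -0.031 in the rest, 0.49 in CD3-expressing and 0.39 in progenitor B-like cells. Without ribosomal, mitochondrial and histone UMIs in the denominator these were 0.71, -0.019, -0.14, 0.64 and 0.14. Without the member with most UMIs the ratio was 0.81 over all cells, 0.73 in CD3-expressing, -0.011 in gamma-delta T-like, 0.13 in progenitor B-like and -0.34 in B-like cells. Without cells with CD3 genes and Cd79a it was -0.083 in dividing and 0.17 in progenitor B-like cells. Dividing over rest, 4.96 in the library labelled Irf4-/- and 4.90 in the library labelled WT, became 5.01 and 4.93 with stricter filters, 4.77 and 4.66 with the other denominator, 4.71 and 4.79 as a mean over cells, 4.72 and 4.62 with a gate of 2 UMIs, 5.11 and 5.02 with a gate of 8, 4.81 and 4.68 with the thinned gate, and 5.27 and 5.22 without the member with most UMIs. S-only over G2/M-only cells, -2.90 and -3.08, became -3.30 and -3.39 with 2 UMIs of a list and -1.91 and -1.40 with 5. At 1.5-fold, 43 members were higher over all cells (13 at 2-fold), 2 higher and 4 lower in dividing cells (0 and 2), and 4 higher and 5 lower in the rest (0 and 0). In dividing cells 1 member was higher with a gate of 8 UMIs, with the thinned gate or with members of at least 1 UMI, and 1 was lower among members with at least 100 UMIs. In the rest 3 were higher with members of at least 1 UMI and 2 lower with stricter filters. Differences within these ranges cannot be told from the choice of cells, and a single library for each genotype limits every comparison between them.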

Other observations

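Among cells with T cell genes, a cluster was led by replication genes such as Hells and another by genes of mitosis such as Hmmr. In the cluster led by replication genes 28.0% of cells labelled Irf4-/- and 24.4% labelled WT passed the gate for dividing cells. In the cluster led by genes of mitosis 94.7% labelled Irf4-/- and 94.4% labelled WT passed it. The cluster led by replication genes had 940 CPM of summed histone UMIs in the library labelled Irf4-/- and 1301 in the library labelled WT. The cluster led by genes of mitosis had 23705 in the library labelled Irf4-/- and 23366 in the library labelled WT.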
